A study of Mus musculus with 6 samples.

Results

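The genes described here are Slpi, Wfdc2, Wfdc17 and Wfdc21, which encode small secreted proteins built around the whey acidic protein (WAP) domain. They were chosen by name, with earlier values of their level in each cell lineage and of the direction of their change between the groups in view, and are 4 of the 28649 gene names in the files. Single-cell RNA was counted in 6 droplet libraries of the mouse 4T1 model, a mammary carcinoma line used for triple-negative breast cancer. In 3 libraries, shPgk1, the 4T1 cells carried a lentiviral hairpin against Pgk1, which encodes the glycolytic enzyme phosphoglycerate kinase, and in the other 3 libraries, shNC, they carried a non-targeting hairpin. Both groups had 48 h of transduction and then 7 days of puromycin at 2 µg/mL, and the labels name no further allele, agent, host, age or sex. The series title ties PGK1 to NF-κB/p65 and to M2-like macrophages. The labels describe 4T1 cells only, yet the libraries also held immune and stromal cells, so they are called by their labels throughout.

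A WAP domain is a short fold held together by disulfide bonds between cysteines, and many proteins that carry it block serine proteases. Slpi, the secretory leukocyte protease inhibitor, blocks neutrophil elastase and cathepsin G and dampens inflammatory signalling in macrophages, and epithelia secrete it at mucosal surfaces. Wfdc2 is the mouse counterpart of human HE4, an epithelial secreted protein measured in human serum as an ovarian cancer marker. Wfdc17 is known in mice as a WAP protein of activated macrophages and microglia. Wfdc21 encodes a further small mouse WAP protein, while its human counterpart is a pseudogene.

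The cysteine-rich stretches of the coding sequences are shown because the spacing of the cysteines defines the family and tells the 4 genes apart. They were read from the first listed transcript of each gene in GENCODE M21 on GRCm38, 5′ to 3′ on the coding strand, from the first to the last cysteine codon of each stretch, with in-frame cysteine codons in capitals.
Slpi, first stretch: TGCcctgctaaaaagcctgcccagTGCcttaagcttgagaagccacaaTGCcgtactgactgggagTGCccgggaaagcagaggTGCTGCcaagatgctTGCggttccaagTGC
Slpi, second stretch: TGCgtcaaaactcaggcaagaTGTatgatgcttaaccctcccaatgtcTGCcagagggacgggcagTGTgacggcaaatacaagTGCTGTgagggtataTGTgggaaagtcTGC
Wfdc2, first stretch: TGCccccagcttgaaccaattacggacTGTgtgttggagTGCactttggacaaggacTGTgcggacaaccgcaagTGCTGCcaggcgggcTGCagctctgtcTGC
Wfdc2, second stretch: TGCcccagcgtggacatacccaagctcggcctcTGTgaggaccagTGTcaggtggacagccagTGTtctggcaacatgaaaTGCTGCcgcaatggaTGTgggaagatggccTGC
Wfdc17: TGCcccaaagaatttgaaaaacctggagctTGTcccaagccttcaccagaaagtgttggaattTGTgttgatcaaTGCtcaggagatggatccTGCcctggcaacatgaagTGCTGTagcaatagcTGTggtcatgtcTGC
Wfdc21: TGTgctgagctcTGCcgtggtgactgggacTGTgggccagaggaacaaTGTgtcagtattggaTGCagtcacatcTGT
Slpi, with 131 codons in all, and Wfdc2, with 174, each hold 2 stretches of 8 cysteine codons, a pair of them side by side in each stretch. Wfdc17 has 76 codons and 1 stretch of 9 cysteine codons with the same adjacent pair. Wfdc21 has 63 codons and 1 stretch of 6 cysteine codons, with 0 adjacent pairs, so it departs from the pattern of the other three. Slpi-201 lies on the minus strand of chromosome 2 (164354070 to 164356507, 4 exons) and Wfdc2-201 on the plus strand of the same chromosome (164562579 to 164568510, 5 exons), 206.1 kb apart. Wfdc17-201 (83703991 to 83706268) and Wfdc21-201 (83746940 to 83752642) both have 3 exons on the plus strand of chromosome 11, 40.7 kb apart, with Wfdc18 between them. No annotated gene overlaps these transcripts except Mir7678, on the same strand as Slpi.

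The 41458 kept cells numbered between 6106 and 7562 per library, with between 76658415 and 124604433 UMIs (unique molecular identifiers, which count captured molecules) per library. Cells were clustered without the WAP genes and named from marker genes, which gave 15635 tumour cells, 12589 monocytes or macrophages, 2831 T or NK cells, 1939 fibroblasts, 1483 neutrophils, 720 conventional dendritic cells and 435 endothelial cells. Of the marker lists, 6 and 7 of the 8 epithelial genes led the 2 tumour clusters, between 9 and 11 of the 12 macrophage genes led the 3 macrophage clusters, and all 8 neutrophil, 8 fibroblast, 8 endothelial, 9 dendritic and 10 T or NK genes led theirs. Tumour cells made up 44.7% ± 1.9 of the cells in shPgk1 libraries and 30.7% ± 6.38 in shNC libraries (SD, n = 3 each). Macrophages made up 25.8% ± 4.39 in shPgk1 and 35.1% ± 1.69 in shNC libraries, and neutrophils 2.21% ± 1.1 in shPgk1 and 4.92% ± 0.931 in shNC libraries. Pgk1 itself did not fall with its hairpin: tumour cells had 246, 302 and 328 CPM (UMIs of the gene for every 1000000 in the same cells) of Pgk1 in shPgk1 libraries and 288, 247 and 220 CPM in shNC libraries, and the ranges overlapped.

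Each member had its own distribution over the lineages. Wfdc2 was an epithelial gene, Slpi was shared by tumour cells, neutrophils, macrophages and fibroblasts, Wfdc17 by myeloid cells, and Wfdc21 was almost confined to neutrophils among the 7 lineages. These levels, and all folds of the 4 members below, are a description with no test, because the genes were chosen on them. In droplet libraries free RNA reaches every barcode, so each member's level in a lineage, as a share of its level over all cells of that library, was set against the same share for marker genes of the other cell types. The median marker stood between 14.8% and 37.3% of its library level, depending on lineage and library. Single markers stood far higher: Bst2, Tcf4 and Irf8, listed for plasmacytoid dendritic cells, had a median between 100% and 119% of their library level in tumour cells, and Pecam1, listed for endothelium, reached 137% in macrophages. Slpi stood between 106% and 147% in tumour cells and between 54.1% and 122% in macrophages, so a ratio above 1 describes distance from the median marker only, and a ratio near 1 to this free-RNA level cannot be told apart from free RNA.

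**Figure D1:**
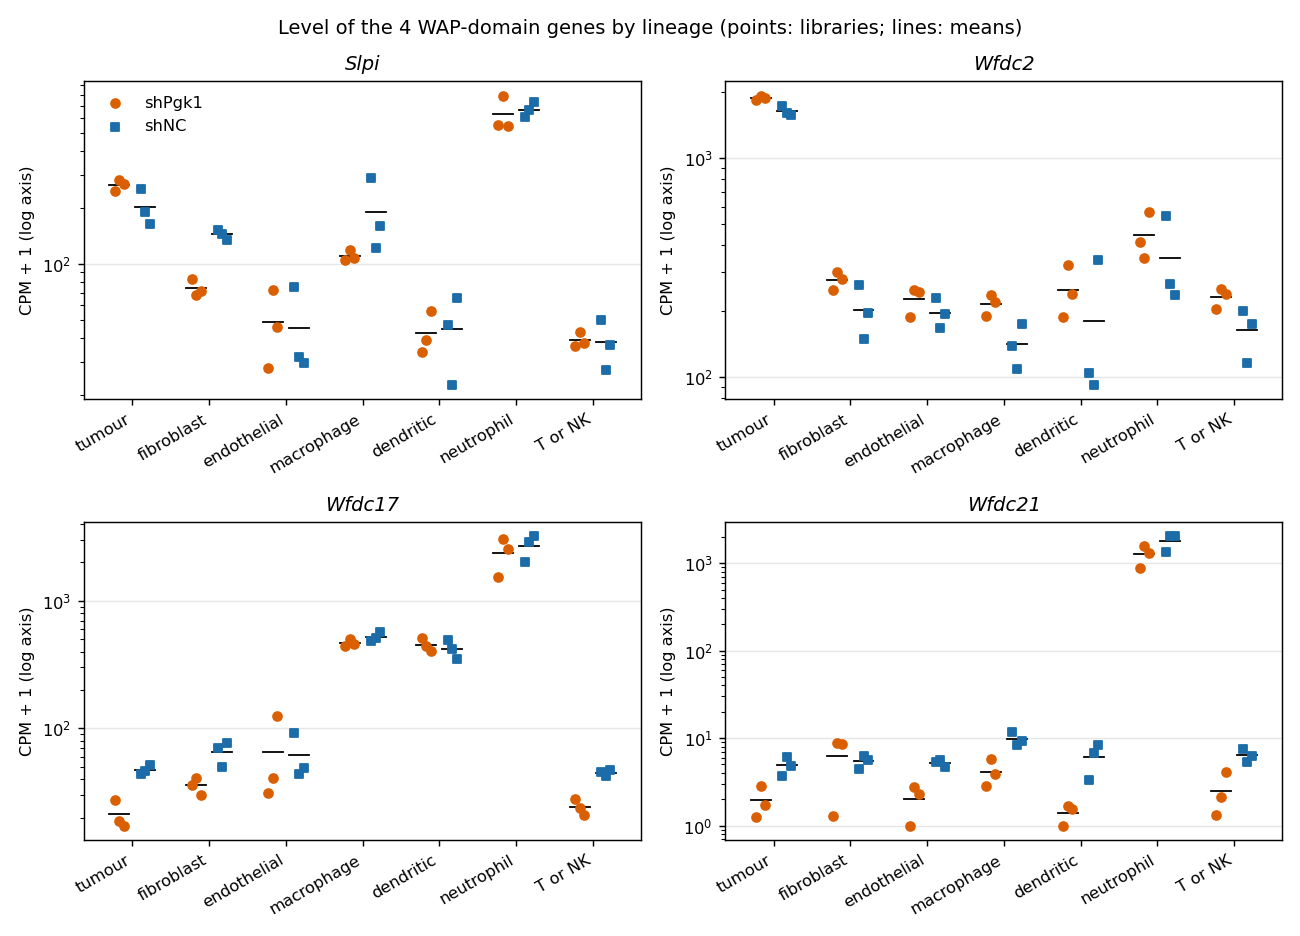
Level of each member (CPM plus 1, log axis) in 7 lineages, with 1 point per library, shPgk1 left of shNC, and lines at the group means. Wfdc2 stood at 1577 CPM or more in tumour cells of all 6 libraries and at 564 CPM or less in every other lineage, while Wfdc21 stood at 892 CPM or more in neutrophils and at 10.9 CPM or less elsewhere.

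Wfdc2 in tumour cells was 1831, 1929 and 1875 CPM in shPgk1 libraries and 1727, 1609 and 1577 CPM in shNC libraries. All 3 shPgk1 libraries lay above all 3 shNC libraries. The mean was 1879 ± 49 CPM in shPgk1 and 1638 ± 79.1 CPM in shNC libraries (SD, n = 3 each), a log2 fold of 0.35 ± 0.10 (SE) in edgeR's fit with trimmed-mean (TMM) scaling. Among all 16259 genes tested in tumour cells, 7.93% were higher in every shPgk1 library than in every shNC library, which is the background for this gap. The fold was 0.20 with library totals alone, a scaling under which the median gene of tumour cells stood at −0.18 rather than −0.03.

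Tumour cells fell into 2 clusters, one led by S100a14, Krt8 and Wfdc2 itself (cluster 0), the other by Tiam2, Efna5 and Hmga2 (cluster 2). Cluster 0 held 68.2%, 63.4% and 65.3% of the tumour cells in shPgk1 libraries and 59.1%, 46.9% and 40.9% in shNC libraries, so the folds over all tumour cells include this difference in makeup. Wfdc2 was 1874, 2003 and 1940 CPM in shPgk1 and 1825, 1820 and 1750 CPM in shNC libraries in cluster 0, a log2 fold of 0.10 ± 0.08. In cluster 2 it was 1689, 1733 and 1678 CPM in shPgk1 and 1465, 1334 and 1412 CPM in shNC libraries, a log2 fold of 0.39 ± 0.14. The groups did not overlap in either cluster, as was the case in this direction for 11.8% of genes tested in cluster 0 and 7.79% in cluster 2, and the level was lower in cluster 2 than in cluster 0 in all 6 libraries.

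In the other named lineages Wfdc2 stayed near the free-RNA level. Its ratio to that level was between 9.42 and 14.1 in tumour cells, between 0.881 and 1.03 in macrophages, between 0.945 and 1.20 in T or NK cells and between 0.870 and 1.26 in fibroblasts. Neutrophils ranged more widely, between 0.836 and 2.27. Cluster 3, 4997 cells left unnamed although the epithelial list matched them best, had Wfdc2 at between 3.01 and 5.86 times the free-RNA level. The level there was 797 ± 54.2 CPM in shPgk1 and 723 ± 29.7 CPM in shNC libraries (SD, n = 3 each), and the groups overlapped. Macrophages had 189, 235 and 218 CPM in shPgk1 and 138, 108 and 173 CPM in shNC libraries, so the log2 fold of 0.57 ± 0.16 in macrophages was that of a gene at the free-RNA level, in libraries whose share of tumour cells was also higher. The part of that share in the fold was not tested. With every cell thinned to 2000 UMIs, between 93.1% and 94.3% of tumour cells in shPgk1 libraries and between 86.3% and 89.8% in shNC libraries had a Wfdc2 UMI, against between 33.2% and 35.3% of T or NK cells in shPgk1 and between 18.6% and 31.4% in shNC libraries. Without thinning the shares were between 98.3% and 98.9% of tumour cells in shPgk1 and between 96.2% and 97.8% in shNC libraries, at a median of 12057 UMIs, and between 61.9% and 73.7% of T or NK cells in shPgk1 and between 47.7% and 67.3% in shNC libraries, at a median of 5668 UMIs.

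**Figure D2:**
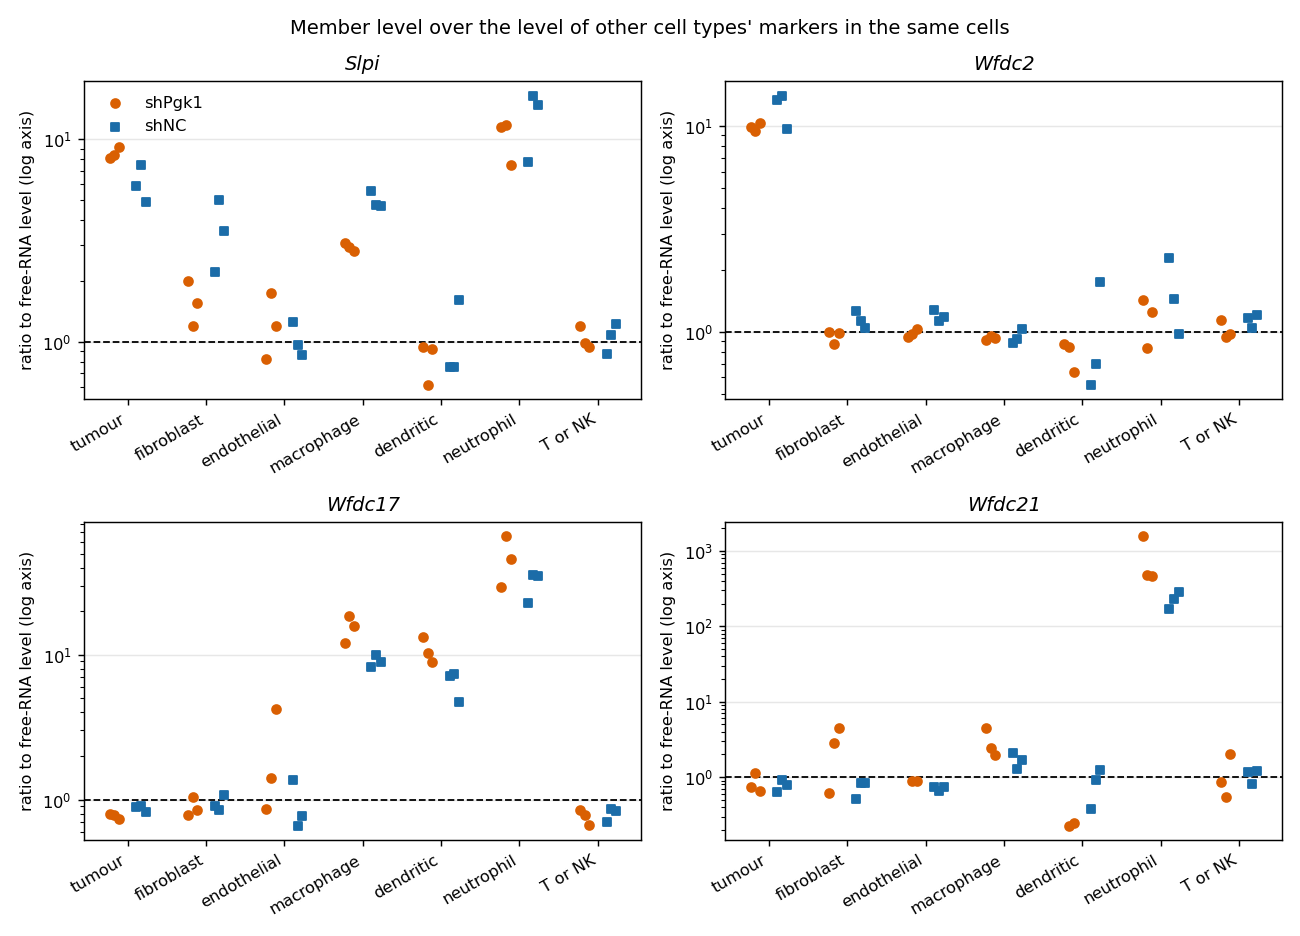
Ratio of each member's level to the free-RNA level in the same cells and library (log axis; values of 0 are not drawn), with 1 point per library, shPgk1 left of shNC, and a dashed line at 1. Wfdc2 left the line in tumour cells in all 6 libraries, Wfdc17 in macrophages, dendritic cells and neutrophils, and Wfdc21 by at least 171 in neutrophils.

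Slpi differed between the groups in opposite directions in tumour cells and in macrophages and fibroblasts. In tumour cells it was 245, 280 and 265 CPM in shPgk1 libraries and 250, 188 and 163 CPM in shNC libraries, and shNC 1 lay within the shPgk1 range. The log2 fold was 0.55 ± 0.16. By cluster, it was 268, 297 and 287 CPM in shPgk1 and 278, 241 and 230 CPM in shNC libraries in cluster 0, and 168, 233 and 197 CPM in shPgk1 and 174, 118 and 99.5 CPM in shNC libraries in cluster 2. The log2 folds were 0.18 ± 0.09 in cluster 0 and 0.75 ± 0.19 in cluster 2, with overlapping groups in both. Like Wfdc2, Slpi was higher in cluster 0, the cluster with the larger share in shPgk1, in all 6 libraries.

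Macrophage Slpi was 104, 117 and 106 CPM in shPgk1 libraries and 285, 120 and 159 CPM in shNC libraries. The shPgk1 libraries lay close together and just below shNC 2, while shNC 1 stood far above the other 5 libraries. The log2 fold was −0.83 ± 0.30, and −0.42 without shNC 1. In macrophages 9.57% of the 15596 genes tested were lower in every shPgk1 library than in every shNC library. Cluster 4, led by Slc7a2, Ly6i, Ccl5 and Ptgs2, held 189, 210 and 152 CPM in shPgk1 and 496, 252 and 205 CPM in shNC libraries. Cluster 1, led by Arg1, Mmp12 and Pf4, held 75.1, 94.5 and 91.9 CPM in shPgk1 and 146, 84.6 and 140 CPM in shNC libraries. The groups overlapped within each cluster, with log2 folds of −0.85 ± 0.37 in cluster 4 and −0.60 ± 0.21 in cluster 1. The small cluster 10 had a fold of 0.09 ± 0.26, at 119 ± 44.1 CPM in shPgk1 and 103 ± 30.2 CPM in shNC libraries (SD, n = 3 each). Cluster 4, with the highest mean Slpi, made up 28.1%, 20.2% and 24.3% of macrophages in shPgk1 libraries and 42.9%, 28.0% and 32.5% in shNC libraries, and its part in the macrophage fold was not tested.

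Fibroblast Slpi was 82.4, 67.3 and 70.9 CPM in shPgk1 libraries and 150, 144 and 134 CPM in shNC libraries. The groups were well apart in CPM, with a log2 fold of −1.0 ± 0.11. The fold stayed between −1.07 and −0.95 when any 1 library was left out. Among 12229 genes tested in fibroblasts, 6.33% were lower without overlap. These levels were closer to free RNA than those of tumour cells: the ratio was between 1.21 and 5.00 in fibroblasts, with the 3 shPgk1 libraries at the low end, between 2.80 and 5.57 in macrophages and between 4.91 and 9.12 in tumour cells. With the estimated free RNA subtracted, the fibroblast fold was −1.91, taken from mean CPM without TMM scaling. The share of fibroblasts with a Slpi UMI, unlike the CPM, overlapped between the groups. In thinned cells it was between 7.53% and 13.7% in shPgk1 and between 10.8% and 19.7% in shNC libraries. Without thinning it was between 44.8% and 55.7% in shPgk1 and between 43.7% and 66.5% in shNC libraries.

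Neutrophil Slpi was 550, 792 and 546 CPM in shPgk1 libraries and 607, 659 and 728 CPM in shNC libraries. The groups overlapped fully, with a log2 fold of −0.11 ± 0.20. Neutrophils held the highest Slpi level of the 7 lineages in every library, followed in shPgk1 libraries by tumour cells, macrophages and fibroblasts. In shNC libraries the means were 200 ± 44.9 CPM in tumour cells, 188 ± 86.5 CPM in macrophages and 143 ± 8.54 CPM in fibroblasts (SD, n = 3). There tumour cells lay above fibroblasts in all 3 libraries, while macrophages lay above tumour cells in shNC 1 only and below fibroblasts in shNC 2 only. T or NK cells, endothelial cells and dendritic cells lay at the free-RNA level, with ratios between 0.614 and 1.75.

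Wfdc17 was a myeloid gene. Neutrophils had 1520, 3038 and 2543 CPM in shPgk1 libraries and 2027, 2881 and 3203 CPM in shNC libraries, macrophages 443, 500 and 455 CPM in shPgk1 and 480, 506 and 565 CPM in shNC libraries, and dendritic cells 507, 437 and 405 CPM in shPgk1 and 493, 421 and 347 CPM in shNC libraries. The groups overlapped in all 3 lineages, with log2 folds of −0.23 ± 0.23 in neutrophils, −0.20 ± 0.10 in macrophages and 0.05 ± 0.14 in dendritic cells. Neutrophils lay above the other lineages in every library, and dendritic cells lay above macrophages in shPgk1 1 and shNC 1 and below them in the other 4 libraries.

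The small macrophage cluster led by Ccl8, Cd163, Cbr2, Retnla and Folr2 (cluster 10, genes known from resident macrophages) held 2873, 8896 and 4673 CPM of Wfdc17 in shPgk1 and 5907, 7278 and 4147 CPM in shNC libraries. The libraries varied widely within both groups, and the groups overlapped. This cluster made up between 1.29% and 5.03% of macrophages over the 6 libraries and carried between 2.92% and 40.8% of their Wfdc17 UMIs. Without it, macrophages had 432, 303 and 389 CPM in shPgk1 and 389, 440 and 542 CPM in shNC libraries, again with overlap.

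**Figure D3:**
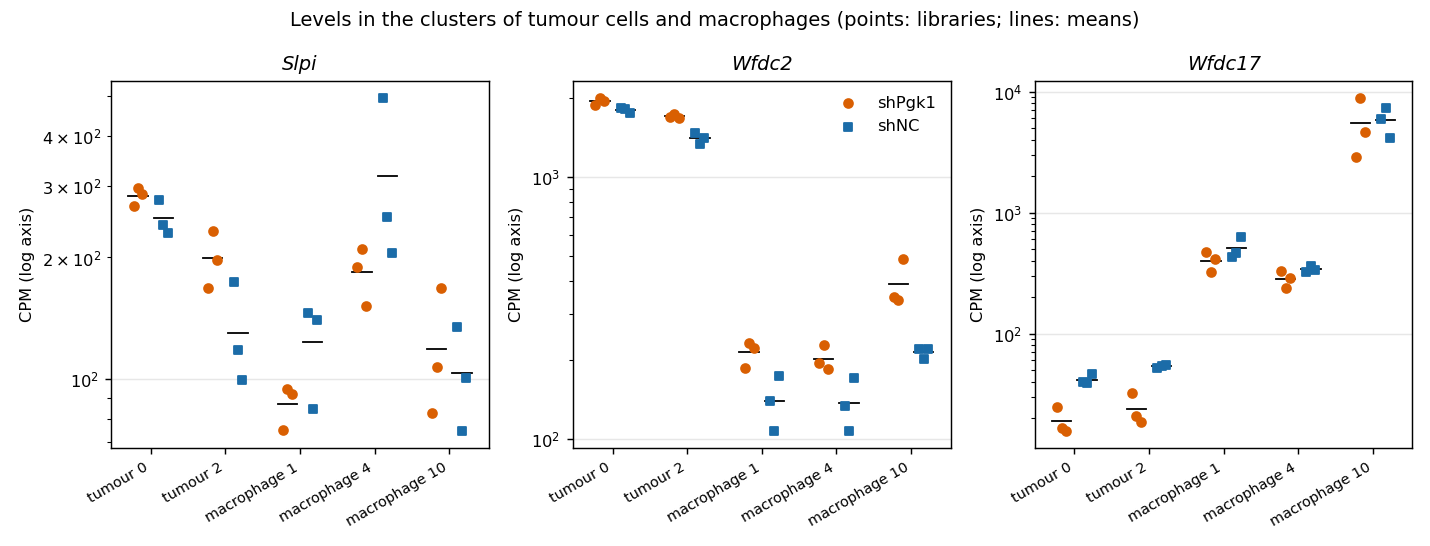
Levels of Slpi, Wfdc2 and Wfdc17 (CPM, log axis) in the 2 tumour and 3 macrophage clusters, with 1 point per library, shPgk1 left of shNC, and lines at the group means. Wfdc17 in macrophage cluster 10 reached between 2873 and 8896 CPM, above clusters 1 and 4 in all 6 libraries, and Slpi was higher in cluster 4 than in cluster 1 in all 6 libraries.

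Over all cells of a library, Wfdc17 was 182, 145 and 150 CPM in shPgk1 libraries and 266, 281 and 277 CPM in shNC libraries, a log2 fold of −0.72 ± 0.10 with no overlap. In such sums over all cells, fewer cells of a type and less RNA per cell cannot be told apart. Among 19523 genes tested over all cells, 25.5% were lower without overlap. In tumour cells Wfdc17 was 26.5, 17.8 and 16.3 CPM in shPgk1 and 42.7, 45.3 and 50.6 CPM in shNC libraries. That is between 0.736 and 0.899 of the free-RNA level, so the log2 fold of −1.05 ± 0.16 in tumour cells is that of a gene at that level, in libraries with fewer macrophages and neutrophils. In cells thinned to 2000 UMIs, between 36.1% and 43.5% of macrophages in shPgk1 and between 43.1% and 45.9% in shNC libraries had a Wfdc17 UMI, against between 3.71% and 5.63% of tumour cells in shPgk1 and between 8.50% and 10.4% in shNC libraries. Unthinned shares in macrophages were between 72.6% and 83.4% in shPgk1 and between 79.5% and 82.1% in shNC libraries, and in tumour cells between 26.2% and 34.4% in shPgk1 and between 36.2% and 44.6% in shNC libraries, at median depths of 14199 and 12057 UMIs.

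Wfdc21 in neutrophils was 892, 1590 and 1299 CPM in shPgk1 libraries and 1349, 2034 and 2035 CPM in shNC libraries. The groups overlapped, with shPgk1 2 above shNC 1, and gave a log2 fold of −0.55 ± 0.22. Neutrophils are shallow (median 1722 UMIs), and shPgk1 libraries held between 62 and 210 of them, against between 261 and 433 in shNC libraries. The ratio to free RNA was between 171 and 1570. Its base is the level over all cells, so it also depends on the share of neutrophils. It was highest in shPgk1 1, which had the fewest neutrophils and the lowest neutrophil level. Over all cells Wfdc21 was 1.99, 10.3 and 7.46 CPM in shPgk1 and 23.6, 31.0 and 21.8 CPM in shNC libraries, beside the lower neutrophil share given above. In macrophages it was 1.83, 4.73 and 2.86 CPM in shPgk1 and 10.9, 7.29 and 8.37 CPM in shNC libraries, a log2 fold of −1.57 ± 0.32, from between 69 and 116 UMIs per library in shPgk1 and between 233 and 502 in shNC libraries. The ratio to free RNA there was between 1.29 and 4.52. Tumour cells, with Wfdc21 ratios between 0.639 and 1.15, had a log2 fold of −1.84 ± 0.62. T or NK cells, with ratios between 0.547 and 2.05, had −2.05 ± 0.52. Fibroblasts had 0.29 ± 0.65, with overlapping groups. The macrophage fold was thus not particular to macrophages, and the part of free RNA in it was not tested.

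The states of single cells were not used to choose the genes, so differences between states within a library were tested with a two-sided exact sign-flip permutation test over the 6 libraries. None of the 20 comparisons passed after Benjamini-Hochberg adjustment. In 7 of them all 6 libraries lay on one side, which gives an exact p of 0.0312, the smallest that 6 pairs allow, and an adjusted p of 0.0893. Unless many more of the 20 had reached that smallest p, no comparison could pass, whatever its size. The lack of a pass therefore says little about any 1 difference. Ly6c2 is a marker of monocytes recently come from blood, but its UMIs were spread over all lineages. Between 18.5% and 37.2% of macrophages in shPgk1 and between 29.8% and 58.5% in shNC libraries had a Ly6c2 UMI, beside between 18.3% and 34.3% of tumour cells in shPgk1 and between 22.1% and 40.7% in shNC libraries. In cells thinned to 2000 UMIs the shares were between 7.78% and 13.7% of macrophages in shPgk1 and between 13.1% and 29.5% in shNC libraries, beside between 2.79% and 9.06% of tumour cells in shPgk1 and between 5.52% and 8.72% in shNC libraries. A single UMI therefore does not show that a macrophage expressed Ly6c2, and cells with one were also slightly deeper (medians of 14885 and 13712 UMIs). Macrophages with a Ly6c2 UMI had 201 ± 78 CPM of Slpi and those without one 110 ± 37.9 CPM (SD, n = 6), a difference of 0.84 ± 0.24 on the log2(CPM + 5) scale, positive in 6 of 6 libraries, and of 1.37 in thinned cells. Wfdc17 ran the other way, with 426 ± 33.5 CPM in macrophages with a Ly6c2 UMI and 537 ± 64.1 CPM in those without, a difference of −0.32 ± 0.16, positive in 0 of 6 libraries, and of −0.13 in thinned cells. Wfdc21 differed by 0.51 ± 0.20, positive in 6 of 6 libraries, at mean levels of 8.53 and 4.27 CPM.

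Wfdc17 was lower in macrophages with MHC class II levels above the library median (347 ± 81.7 CPM) than in those at or below it (673 ± 102 CPM). The difference was −0.97 ± 0.52, positive in 0 of 6 libraries, and cells above the median were deeper (medians of 16827 and 11438 UMIs). Wfdc17 was also lower in cycling macrophages (359 ± 31.6 CPM) than in the others (560 ± 48.1 CPM). That difference was −0.64 ± 0.15, positive in 0 of 6 libraries, and cycling cells were deeper (medians of 25404 and 12049 UMIs). Cluster 10 was included in these comparisons. The MHC class II difference was largest in shPgk1 2 (228 against 821 CPM), where cluster 10 carried 40.8% of macrophage Wfdc17 UMIs. It was smallest in shPgk1 1 (390 against 506 CPM), where cluster 10 carried 2.92%. The part of cluster 10 in these differences was not tested. Slpi showed no common direction with MHC class II, with a mean difference of −0.12 ± 0.51, positive in 3 of 6 libraries. In tumour cells Wfdc2 was 1663 ± 200 CPM where Hmga2 was above the library median and 1848 ± 110 CPM elsewhere, a difference of −0.16 ± 0.12, positive in 0 of 6 libraries. Cycling and other tumour cells differed by 0.02 ± 0.14 in Slpi and by −0.02 ± 0.05 in Wfdc2, with libraries on both sides of 0. The remaining comparison with all libraries on one side was Wfdc2 by MHC class II in macrophages (−0.27 ± 0.09), where Wfdc2 is at the free-RNA level.

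**Figure D4:**
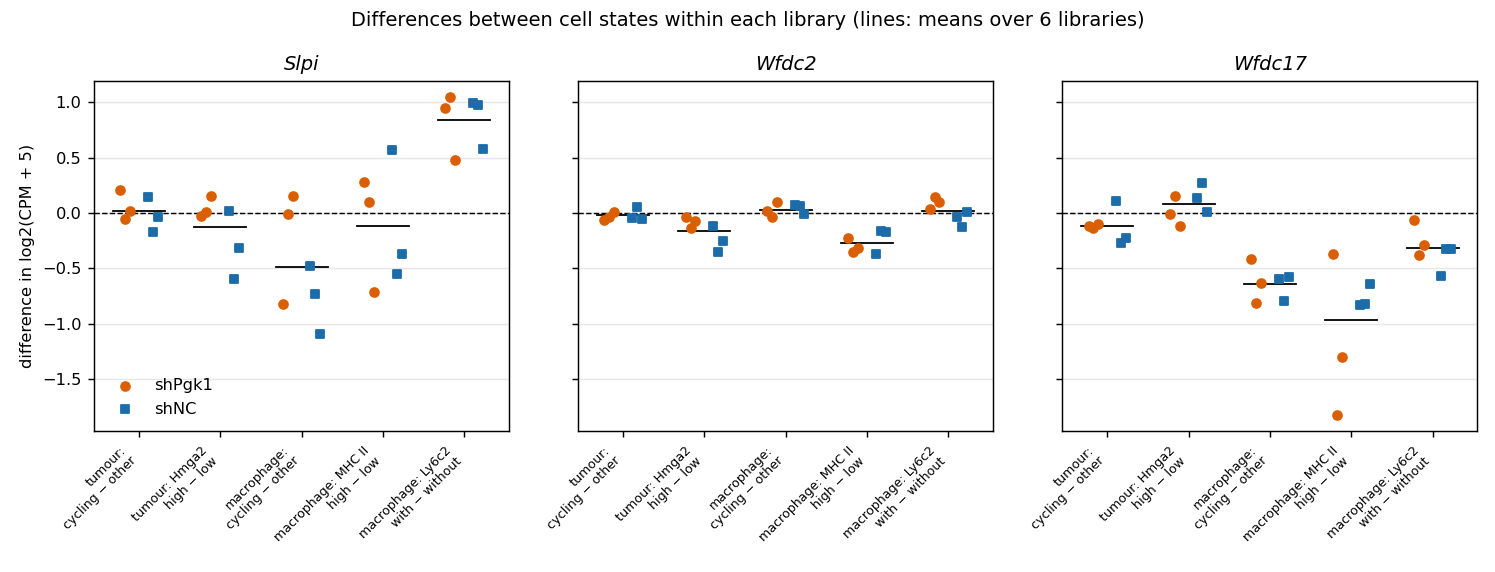
Differences in log2(CPM + 5) between cell states within each library for Slpi, Wfdc2 and Wfdc17, with 1 point per library, shPgk1 left of shNC, lines at the means and a dashed line at 0. Slpi was higher in macrophages with a Ly6c2 UMI in 6 of 6 libraries, and Wfdc17 was lower in cycling and in MHC class II high macrophages in 6 of 6.

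The genes most like each member over 42 points (7 lineages in 6 libraries, which share libraries and depth) were named by Pearson's r of log2(CPM + 5), as a description. Krt18 (0.989), Krt8 (0.986) and Krt7 (0.983), keratins of simple epithelia, stood with Wfdc2, followed by Tnnt2 (0.979) and the serine protease gene Prss22 (0.974). Wfdc17 stood with Ptafr (0.979), the receptor for platelet-activating factor, the kinase Syk (0.973), Mcemp1 (0.971) and the inhibitory receptor Pirb (0.971). Wfdc21 stood with Retnlg (0.993), the formyl peptide receptor Fpr1 (0.990), G0s2 (0.989), Cstdc5 (0.989) and Asprv1 (0.988). Slpi had weaker partners, led by Gadd45a (0.917), a stress-response gene, and Mmp9 (0.899), a gelatinase of neutrophils and tumours, then Sfxn5 (0.886), Bri3 (0.886) and Por (0.869). Between members r was 0.743 for Slpi with Wfdc21, 0.740 for Wfdc17 with Wfdc21, 0.515 for Slpi with Wfdc17, 0.496 for Slpi with Wfdc2 and −0.225 for Wfdc2 with Wfdc17.

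The rest of the family was barely detected. All 20 other WAP genes of the list had a count somewhere, but 17 of them had fewer than 100 over the 6 libraries, and together they gave 1706 UMIs against 855712 for the 4 members. Wfdc18, which lies between Wfdc17 and Wfdc21, led them in tumour cells with 0.19, 0.332 and 0.151 CPM in shPgk1 and 0.191, 1.11 and 8.64 CPM in shNC libraries, carried by shNC 3. Of the 20, 2 were tested in tumour cells and 0 passed edgeR's quasi-likelihood test, with 1 at an unadjusted p under 0.05 and 1 passing in DESeq2.

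Other inhibitors, proteases and defence genes were counted in the same edgeR quasi-likelihood fit, with Benjamini-Hochberg adjustment over all genes. In tumour cells 8.45% of all genes tested passed an adjusted p of 0.05, 3.39% higher and 5.06% lower in shPgk1. Of 34 serpins and Kunitz-type inhibitors, 23 were tested there, 2 rose and 2 fell, with a median log2 fold of −0.46 beside −0.03 for all genes. Spint2, a membrane-bound Kunitz inhibitor, rose with 444, 467 and 451 CPM in shPgk1 and 384, 377 and 374 CPM in shNC libraries, a log2 fold of 0.42 ± 0.10 (adjusted p = 0.0389). Serpinb5, the epithelial serpin maspin, rose with 18.4, 19.7 and 22.5 CPM in shPgk1 and 16.8, 14.8 and 13.6 CPM in shNC libraries, a log2 fold of 0.57 ± 0.13 (adjusted p = 0.0337). Both stood at least 9.07 times above free RNA in tumour cells, as Wfdc2 did. Serping1, the C1 inhibitor, fell by 1.05 on the log2 scale (adjusted p = 0.0379) and Serpina3i by 2.02 (adjusted p = 0.0311), both near the free-RNA level, with ratios between 0.592 and 1.12.

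Of 12 secretory epithelial defence genes, 9 were tested in tumour cells, 1 rose and 1 fell, with a median log2 fold of 0.05. Clu, the secreted chaperone clusterin, rose with 853, 1257 and 1159 CPM in shPgk1 and 803, 694 and 770 CPM in shNC libraries, a log2 fold of 0.68 ± 0.16 (adjusted p = 0.0374). Hp, haptoglobin, fell by 1.87 on the log2 scale (adjusted p = 0.000523) with 2.60, 2.44 and 2.17 CPM in shPgk1 and 10.2, 9.80 and 9.17 CPM in shNC libraries, at between 0.818 and 1.26 of the free-RNA level. Lcn2, named after its level was seen, is a siderophore-binding defence protein known from epithelia and neutrophils, and had 427, 428 and 420 CPM in shPgk1 and 513, 354 and 402 CPM in shNC tumour cells (adjusted p = 0.47).

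Of 12 activated-macrophage defence genes, all 12 were tested in tumour cells, 0 rose and 3 fell, with a median log2 fold of −0.64. Nos2, the inducible nitric oxide synthase, had 73.6, 51.4 and 56.6 CPM in shPgk1 and 127, 106 and 140 CPM in shNC tumour cells, a log2 fold of −0.89 ± 0.15 (adjusted p = 0.0222), and stood between 4.91 and 7.71 times above free RNA. Il1rn, the interleukin-1 receptor antagonist, fell by 0.85 (adjusted p = 0.0247) and Chil3 by 2.42 (adjusted p = 0.0258), with ratios to free RNA between 0.683 and 1.92. Of these 9 tumour calls, Hp passed whichever library was left out, and the other 8 kept their direction but failed without shPgk1 2, without shPgk1 3 or without shNC 2 (6 of them also without shNC 3), with adjusted p up to 0.169. Serpinb5, Spint2 and Clu also failed with the replicate number as a block, Spint2 with library totals alone, and Serping1 with no filter on low counts.

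The proteases that Slpi is known to block belong to the granule and mast cell serine proteases, of which 0 passed in edgeR's quasi-likelihood test. Of the 12 in the list, 11 were tested in tumour cells, with a median log2 fold of −0.83, and 2 had an unadjusted p under 0.05 and 3 passed in DESeq2. In macrophages 11 were tested, with a median of −1.25, 6 had an unadjusted p under 0.05 and 3 passed in DESeq2. In neutrophils 2 were tested, Mcpt1 and Mcpt2, both with an unadjusted p under 0.05, and 0 passed in DESeq2. These 2 stood at between 0.308 and 1.13 of the free-RNA level there. The genes of neutrophil elastase and cathepsin G were not among those tested in neutrophils. Of 12 cysteine protease inhibitors, 8 were tested in tumour cells and 0 passed, while 4 had an unadjusted p under 0.05 and 3 passed in DESeq2. Over the 6 lists together, 0 of 64 genes tested in macrophages, 0 of 29 in neutrophils and 0 of 49 in fibroblasts passed in edgeR, where 0.577%, 0.0368% and 0.0327% of all genes tested did. In T or NK cells, where 0.0678% of all genes tested passed, 1 list gene did, Hp, with 1.83, 2.27 and 1.39 CPM in shPgk1 and 10.4, 5.93 and 10.3 CPM in shNC libraries, a log2 fold of −2.29 ± 0.34 (adjusted p = 0.0238), at between 0.409 and 1.03 of the free-RNA level. That call failed without shPgk1 2 or without shPgk1 3, with adjusted p up to 0.0723. Of the list genes in the other 3 lineages named here, 24 in macrophages, 16 in neutrophils and 9 in fibroblasts had an unadjusted p under 0.05, and 12, 2 and 0 passed in DESeq2.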

How the data were processed

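Each of the 6 libraries was used as the authors deposited it, a matrix of raw UMI counts per gene and barcode. Per the file headers the matrices were written by PISA 0.12. Per the submitters' processing notes Seurat 4 was used, and the builds named are GRCh38 and hg38, although the gene names are mouse names and 97.6% of the 28649 are in GENCODE M21. The aligner, the strand setting and the handling of reads that match several loci were not given in the sources used here, so overlapping genes may share reads. The tables held 0 columns of other samples.

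Of 42902 barcodes, 643 had under 500 UMIs, under 300 genes or over 20% mitochondrial UMIs, and a further 801 had a Scrublet doublet score over 0.25 (expected rate 0.06), which left 41458. The caller's own threshold marked between 0 and 125 barcodes per library and was not used. Cells were clustered with scanpy 1.11.5 in Python 3.11.15 on 2000 variable genes, 30 principal components and 15 neighbours (Leiden, leidenalg 0.10.2, resolution 0.5), with the WAP genes left out. Of 15 clusters, 3 with 5555 cells stayed unnamed, and pericyte and mast cell clusters had under 20 cells in at least 1 library and were left out. The largest unnamed one, cluster 3 with 4997 cells, matched the epithelial list best, with 2 of its 8 genes raised. Names rebuilt from markers may differ from the submitters' own.

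Counts were summed per library and lineage and fitted with edgeR 4.0.16 in R 4.3.3 (robust quasi-likelihood, TMM, filterByExpr, Benjamini-Hochberg adjusted p of 0.05). On simulated tumour sums it recovered 97.8% of 93 genes changed by 1 on the log2 scale and 99.1% of 107 changed by 2. It also called 23 of 15814 unchanged genes, 10.5% of its calls. The changed genes were drawn only above a minimum mean CPM, and each gene varied on its own. Recovery of genes as low as Serpina3i or Chil3, or under variation shared by many genes of a library, was therefore not simulated. Alternatives were DESeq2 1.42.0, other scalings, no low-count filter, a replicate block, each library left out, other cell gates, no doublet score, other pseudocounts and thinning to 2000 UMIs. Subtracting free RNA and using macrophage clusters 1 and 4 only were added after seeing the data. Intervals cover counting error only.

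Samples were grouped by title. Whether replicates are separate animals or cultures is not labelled, and the p-values therefore reflect only library-to-library spread, which may be technical. No cell had identical counts in more than 1 library, and the most alike pair of libraries had a chi-square of 22.3 per degree of freedom. Barcodes in the files are serial names, so the 1234 to 1671 names that 2 libraries share are not shared barcodes. The members and gene lists were chosen with earlier results of these data known. Named genes were the members, Pgk1, up to 4 genes per list with the smallest p past the threshold in a lineage, and the 5 genes most like each member, of which 1 is not reported here.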

Additional observations from a re-analysis of the deposited data

How the results depend on the processing

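Of 152 alternatives for 10 member folds, 142 moved the fold by less than the replicate spread; of 112 for gene counts, 41 stayed within 1.5 times; of 160 for state differences, 155 kept their direction. No state difference passed the threshold, and with 1 library left out none could, since the smallest exact p is then 0.0625. Folds with free RNA subtracted were log2 ratios of mean CPM without TMM scaling, so they compare with folds from library totals. They were 0.17 for Wfdc2 in tumour cells, −0.08 for Wfdc17 and −0.92 for Wfdc21 in macrophages, and −1.91 for Slpi in fibroblasts. Library totals alone, with nothing subtracted, gave 0.20 for Wfdc2 in tumour cells. Gating each barcode gave Slpi 0.13 in neutrophils and −0.66 in fibroblasts. In thinned cells the Wfdc2 difference by Ly6c2 in macrophages was −0.09, against 0.02. The causes were not tested.

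In tumour cells 1374 genes passed, against 3094 with DESeq2, 2294 with library totals, 2748 with no low-count filter and 2861 with the barcode gate. In macrophages 90 passed, against 617 with DESeq2, 555 with no filter, 25 with the gate and 193 without the doublet score. In neutrophils 2 passed, against 14 with DESeq2, 1 with library totals, 48 with no filter, 1 at resolution 1.0 and 33 without the doublet score. In fibroblasts 4 passed, against 57 with DESeq2, 350 with no filter, 32 with the gate and 2 without the doublet score. Of the fixed-list genes, 9 passed in tumour cells, against 22 with DESeq2 and 15 with no filter. In macrophages 0 passed, against 12 with DESeq2, 5 with no filter, 1 at resolution 1.0 and 1 without the doublet score. In neutrophils 0 passed, against 2 with DESeq2, 7 with no filter and 3 without the doublet score, and in fibroblasts 0, against 7 with no filter and 3 with the gate.

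Same-numbered libraries showed no common deviation in tumour cells (correlations between −0.30 and 0.28, beside −0.24 to 0.43 for different numbers). With 3 libraries in each group, this cannot show whether they share more than a number. A replicate block gave 612 genes in tumour cells, 37 in macrophages, 13 in neutrophils and 41 in fibroblasts, and 14, 3, 2 and 2 fixed-list genes in the same lineages.

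With 1 library left out, the Wfdc2 fold in tumour cells was between 0.32 and 0.42 and that of Wfdc21 in macrophages between −2.0 and −1.29. Genes past the threshold numbered between 5 (without shPgk1 3) and 4095 (without shNC 1) in tumour cells, between 15 (without shPgk1 3) and 481 (without shPgk1 1) in macrophages, between 0 and 13 in neutrophils and between 0 and 15 in fibroblasts. Fixed-list genes numbered between 1 and 19 in tumour cells, 0 and 3 in macrophages and 0 and 2 in neutrophils. The Slpi difference of cycling tumour cells was between −0.02 and 0.06, that of Slpi by MHC class II between −0.25 and 0.00 and that of Wfdc2 by Ly6c2 between 0.00 and 0.05.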

Other observations

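Cluster 12, 200 cells with markers of both B or plasma cells and plasmacytoid dendritic cells, was left unnamed. Pooled over the 6 libraries, its 80 cells with Siglech UMIs and no Cd79a UMI held 758 CPM of Slpi (exact Poisson 95% interval 687 to 835, from 416 UMIs), and 70.0% of them had a Slpi UMI. Its 102 cells with Cd79a UMIs and no Siglech UMI held 60.4 CPM (43.3 to 81.9, from 41 UMIs), and 24.5% had one. The split was chosen after these values were seen and was not tested, and the intervals cover counting error only. Wfdc2 did not separate them, with 222 CPM (185 to 265) in the Siglech cells and 247 CPM (211 to 288) in the Cd79a cells.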
